A study of Mus musculus with 6 samples.

Results

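The AP-1 transcription factor genes and their relative Atf3 were followed by mRNA sequencing of 661W. This immortalised mouse cell line is described as being of cone photoreceptor origin. The group holds 9 genes, chosen by symbol among the 24879 lines of the expression table: Fos, Fosb, Fosl1 and Fosl2, Jun, Junb and Jund, and Atf3 and Jdp2. All 9 were present in the table. Light-exposed cultures (Light, 3 libraries) stood for 24 h under a cold white fluorescent lamp giving 2000 ± 100 lux. Unlit cultures (Dark, 3 libraries) were kept dark for the same 24 h, and both groups grew in the same serum-containing medium. The labels name no genetic change in either group, and they do not say whether the replicates were separate cultures. If they were not, the spread behind each p-value is only technical.

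AP-1 is a dimer of basic leucine zipper proteins. Fos proteins cannot pair with each other and bind DNA with a Jun partner, whereas Jun proteins can also pair among themselves. ATF3 and JDP2 are close relatives that join Jun proteins and often act as repressors. Several of these genes are switched on within minutes by stress kinases or growth factors, and in the mouse retina c-Fos is known to be needed for photoreceptor death after intense light.

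Levels are given in FPKM, which divides fragments by transcript length and library size and so allows levels of different genes to be set side by side. FPKM totals were 459198 to 471471 in Light libraries and 411186 to 434372 in Dark libraries. Sequencing depth is unknown, because the deposited values give no read totals. All 11 cone markers examined averaged under 1 FPKM, and 4 of them, Opn1mw, Arr3, Pde6c and Cngb3, were listed at 0 in every library. The label of a photosensitive cell was therefore not borne out by cone transcripts. Summed levels of some other marker lists also moved with the groups. Those of rod, ganglion cell and pigment epithelium markers overlapped between groups, the rod sum at 0.203 to 0.295 FPKM in Light and 0.176 to 0.257 in Dark. The fibroblast list was led by Col1a1, with a mean of 496 FPKM, and 3 of its 7 markers averaged under 1 FPKM. Fibroblast markers summed to 358 to 388 FPKM in Light and 738 to 854 in Dark. Müller glia markers, with Slc1a3, Glul and Apoe alone above 1 FPKM, summed to 41.0 to 43.4 in Light and 58.0 to 63.4 in Dark. Macrophage markers, of which only Cd68 reached 1 FPKM, summed to 7.99 to 9.98 in Light and 3.95 to 5.07 in Dark. Endothelial markers, with Flt1 alone above 1 FPKM, summed to 4.20 to 4.75 in Light and 6.51 to 7.65 in Dark. The markers' part in the results was not tested. In bulk RNA, a change in the number of cells of a type and a change in RNA per cell cannot be told apart.

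Of the 8 members with a mean of at least 1 FPKM, the limit for testing, 5 rose in Light (Atf3, Fosl1, Jund, Fosl2 and Jun), 1 fell (Fos) and 2 did not pass the test (Junb and Jdp2). Fosb was too low to be tested. A gene was called at an adjusted p under 0.05 from limma with Benjamini-Hochberg adjustment over all 11068 genes tested. By the same rule 35.6% of all tested genes were called, 19.2% higher and 16.4% lower in Light. The 3 Light values lay wholly above the 3 Dark values for those 5 members, as they did for 28.2% of tested genes, and wholly below them for Fos, as for 24.4%. They overlapped for Junb, Jdp2 and Fosb. A separation in either direction was seen for 52.6% of tested genes. The median log2 change of the 8 members was 0.53, against -0.01 for all tested genes. All log2 changes are of FPKM + 1, with Light on top of the ratio, and they understate the change of lowly expressed genes.

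**Figure D1:**
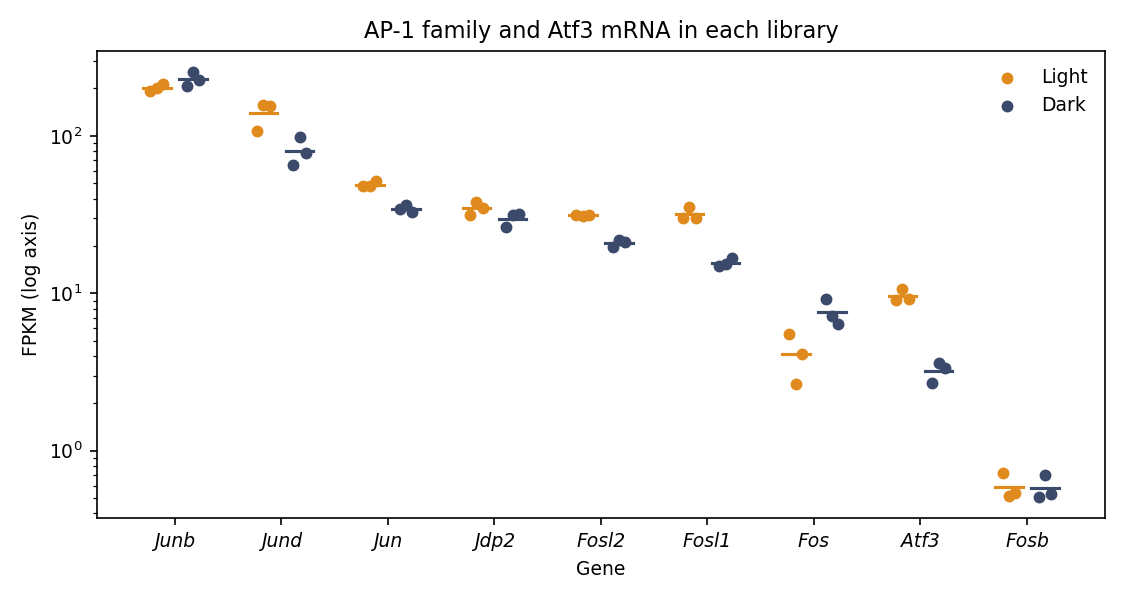
FPKM (logarithmic vertical axis) of the 9 genes in each library, ordered by their Dark mean, with 1 point per library and a bar at the mean of 3 libraries. Light points lie above all Dark points for Jund, Jun, Fosl2, Fosl1 and Atf3 and below them for Fos.

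Atf3, a stress-induced repressor and activator that ATF4 and other stress factors switch on, showed the largest rise among the members. Its level was 9.04, 10.6 and 9.26 FPKM in the Light libraries, against 2.69, 3.60 and 3.35 FPKM in the Dark libraries. The lowest Light library thus stood well above the highest Dark library. The means were 9.65 ± 0.872 FPKM in Light and 3.21 ± 0.471 FPKM in Dark (SD, n = 3 each), a ratio of 3.003. The log2 change was 1.34 ± 0.11 (SE, limma adjusted p = 0.000492), the 38th largest increase of 11068 genes. Its means differed at least 2-fold, as those of Fosl1 did and those of 5.39% of tested genes. Atf3 (ENSMUSG00000026628) lies on the minus strand of chromosome 1 from 191170296 to 191218039 in mm10 and is protein-coding.

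Jdp2, the closest relative of Atf3 and a repressor of Jun-dependent transcription, stood higher than Atf3 but did not pass the test. It had 31.3, 37.7 and 34.8 FPKM in Light, against 26.4, 31.3 and 31.7 FPKM in Dark. The lowest Light value fell within the Dark range. The means were 34.6 ± 3.24 FPKM in Light and 29.8 ± 2.94 FPKM in Dark (SD, n = 3 each), a log2 change of 0.21 ± 0.10 (SE, limma adjusted p = 0.124). When a trend of each library with transcript length and GC content was removed, here called the length and GC correction, its change was -0.07 (limma adjusted p = 0.382). Within each library, Atf3 reached 0.289, 0.282 and 0.266 times the level of Jdp2 in Light, against 0.102, 0.115 and 0.106 times in Dark. This ratio does not depend on library scaling, and its Light and Dark values were far apart. Jdp2 (ENSMUSG00000034271) lies on chromosome 12 from 85599027 to 85639878, on the same strand as Fos and downstream of it.

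Sequence before the start sites was read for 8 of the 9 members, since these genes are themselves targets of ATF, CREB and AP-1 proteins. No promoter sequence was available for Fosl1. It came from RefSeq on the GRCm38.p6 build, the assembly that mm10 names. Windows reached from 250 bases before to 50 bases after each annotated start, and 6 motifs were searched on both strands. These were the AP-1 site TGANTCA, the whole cyclic AMP response element TGACNTCA, its core TGACGT, the C/EBP-ATF composite site TTGCATCA, the antioxidant response element core TGACNNNGC and the CArG box. A whole element with G at its open position also holds the core. Of all 32851 promoters, 7.81% held the AP-1 site, 8.83% the whole element, 7.51% the core, 0.895% the composite site, 12.4% the antioxidant core and 1.63% the CArG box. Among the 10806 promoters of tested genes the shares were 4.72%, 7.01%, 12.0%, 0.565%, 14.5% and 1.22% in the same order. Matches were found in Atf3, Jdp2, Jun and Fos, whose last 150 bases before the start are shown with the matches in capitals, because these sites are those through which ATF and Jun proteins are known to act.
Atf3: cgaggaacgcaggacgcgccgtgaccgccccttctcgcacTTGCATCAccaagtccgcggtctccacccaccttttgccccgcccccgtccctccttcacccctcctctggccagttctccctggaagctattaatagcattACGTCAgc
Jdp2: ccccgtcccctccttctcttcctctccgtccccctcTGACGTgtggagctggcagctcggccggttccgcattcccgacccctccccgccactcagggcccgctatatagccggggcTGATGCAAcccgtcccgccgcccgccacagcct
Jun: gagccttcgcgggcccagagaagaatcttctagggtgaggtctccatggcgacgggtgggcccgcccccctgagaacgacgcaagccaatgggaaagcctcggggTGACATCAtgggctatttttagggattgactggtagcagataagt
Fos: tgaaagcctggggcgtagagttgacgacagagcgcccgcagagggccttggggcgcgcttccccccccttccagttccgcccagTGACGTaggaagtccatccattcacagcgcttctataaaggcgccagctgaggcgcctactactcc

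The Atf3 window is chr1:191183334-191183483 on the minus strand. It holds the composite site TTGCATCA, starting 110 bases before the start, and the core, starting 8 bases before it. The core lies on the opposite strand, so the printed strand reads ACGTCA. The annotated Atf3 start lies inside the gene model of GENCODE M21, whose upstream end at 191218039 was not read. The Jdp2 window is chr12:85599266-85599415 on the plus strand, at the second of its 3 annotated starts. It holds the same pair, the core starting 114 bases and the composite site, read as TGATGCAA, 33 bases before the start. The Jun window, chr4:95052223-95052372 on the minus strand, holds the whole element as TGACATCA, starting 45 bases before the start. The Fos window, chr12:85473740-85473889 on the plus strand, holds the core, starting 66 bases before the start. None of the 6 motifs was found in the windows of Fosb, Fosl2 and Junb or at the other 2 starts of Jdp2. The annotated Jund start lies upstream of the gene model of GENCODE M21 used for its position, so its window, which also held none, may not be the start in use. A match is a description of the sequence and does not show that a factor bound there. Sites more than 250 bases before a start were not searched. That no CArG box was found for Fos therefore does not show that its promoter lacks one.

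**Figure D2:**
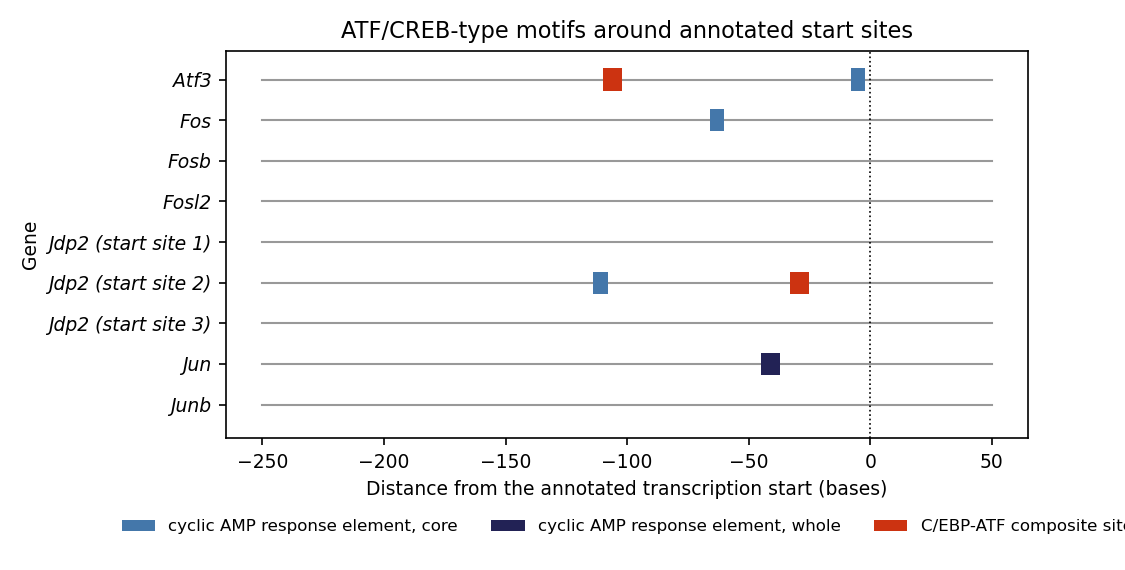
Positions of the motifs found around annotated transcription starts (horizontal axis, distance in bases, start at 0), with 1 line per start site. Jund is not drawn, and Fosl1 had no sequence. Atf3 and the second start of Jdp2 each carry a composite site (red) and a core of the cyclic AMP response element (light blue), Jun carries the whole element (dark blue) and Fos the core.

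The Jun genes encode the obligatory partners of Fos proteins. Jun itself, the strongest activator of the family, had 47.7, 47.9 and 51.4 FPKM in Light, against 34.2, 36.4 and 32.9 FPKM in Dark. All Light values lay above all Dark values. The means were 49.0 ± 2.08 FPKM in Light and 34.5 ± 1.75 FPKM in Dark (SD, n = 3 each). The log2 change was 0.49 ± 0.066 (SE, limma adjusted p = 0.00288). Jun (ENSMUSG00000052684) lies on chromosome 4 from 95049034 to 95052222 on the minus strand, and an antisense gene, Junos, shares 232 of its 3189 exon bases. Junos has no line in the table.

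Jund, a Jun protein usually present in resting cells, varied more between libraries than Jun. It had 107, 157 and 156 FPKM in Light, against 65.3, 98.0 and 78.3 FPKM in Dark. The groups did not overlap, but Light 1 stood close to Dark 2. The means were 140 ± 28.5 FPKM in Light and 80.5 ± 16.5 FPKM in Dark (SD, n = 3 each), a log2 change of 0.79 ± 0.19 (SE, limma adjusted p = 0.0211). The call was lost without Light 2 (adjusted p = 0.0837), without Light 3 (0.0828), without Dark 3 (0.0748), without both Dark 1 and Light 2 (0.0905) and without a filter on low values (0.0568), where limma's changes ran from 0.56 to 0.79. Jund has the highest GC content of the members, 67.1% over its transcript. After the length and GC correction its change was 0.63 ± 0.083 (SE, limma adjusted p = 0.00129). Jund (ENSMUSG00000071076) lies on chromosome 8 from 70698949 to 70700616. The antisense gene Gm11175, which has no line in the table, shares 877 of its 1668 exon bases. The labels do not say whether reads were counted by strand.

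Junb, a Jun protein that often opposes Jun, was the most abundant member and did not pass the test. It had 192, 202 and 214 FPKM in Light, against 208, 255 and 227 FPKM in Dark. The groups overlapped, since Light 3 exceeded Dark 1. The means were 203 ± 11.3 FPKM in Light and 230 ± 23.5 FPKM in Dark (SD, n = 3 each), a log2 change of -0.18 ± 0.091 (SE, limma adjusted p = 0.16). Junb was lower in Light under all 16 alternatives, but its call depended on the scaling. Median centring gave -0.12 and no call (limma adjusted p = 0.425), and no fit with 1 library left out called it. Other scalings did give it a call. Its change was -0.35 with quantile normalization (limma adjusted p = 0.00736), -0.32 with libraries rescaled to the same FPKM total (0.0186) and -0.41 after the length and GC correction (0.00102). Junb (ENSMUSG00000052837) lies on chromosome 8 from 84974484 to 84978718, on the minus strand. Its exons share 173 of 2301 bases with Prdx2 on the other strand, which had 246 to 267 FPKM in Light and 197 to 250 FPKM in Dark. Without a known strand setting, reads from that stretch cannot be assigned.

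Because the Jun genes moved by different amounts, the make-up of the family's mRNA differed between groups. Junb made up 51.9% ± 3.04 of the summed Jun family in Light and 66.7% ± 1.14 in Dark (SD, n = 3 each). The share of Jund was 35.5% ± 4.08 in Light and 23.2% ± 1.99 in Dark, and that of Jun 12.6% ± 1.05 in Light and 10.1% ± 0.936 in Dark. These shares are unaffected by library scaling and are given as a description. Jun reached 0.248, 0.237 and 0.240 times the level of Junb in Light, against 0.165, 0.143 and 0.145 times in Dark. The summed Jun family stood at 392 ± 39.6 FPKM in Light and 345 ± 41.3 FPKM in Dark, a difference of about the size of the spread between replicates.

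Among the Fos genes, the longer-lived relatives rose and Fos fell. Fosl1, the gene of Fra-1, which lacks the strong activation domain of c-Fos, had 30.1, 35.4 and 30.0 FPKM in Light, against 14.9, 15.4 and 16.7 FPKM in Dark. The lowest Light value was far above the highest Dark value. The means were 31.8 ± 3.11 FPKM in Light and 15.7 ± 0.927 FPKM in Dark (SD, n = 3 each), a ratio of 2.03. The log2 change was 0.98 ± 0.085 (SE, limma adjusted p = 0.000564), the 98th largest increase of all tested genes. Fosl1 (ENSMUSG00000024912) lies on the plus strand of chromosome 19 from 5447547 to 5455946. Ccdc85b, on the opposite strand, shares 1163 of its 2033 exon bases and had 78.3, 107 and 92.8 FPKM in Light, against 63.9, 79.3 and 77.1 FPKM in Dark (log2 change 0.33, limma adjusted p = 0.0857). Without a known strand setting, the level and change of Fosl1 are uncertain by the reads it shares with Ccdc85b.

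Fosl2, the gene of Fra-2, was the steadiest member between replicates. It had 31.3, 30.9 and 31.6 FPKM in Light, against 19.8, 21.7 and 21.1 FPKM in Dark. The replicates of each group lay within 2 FPKM of each other and the groups were well apart. The means were 31.2 ± 0.373 FPKM in Light and 20.8 ± 0.965 FPKM in Dark (SD, n = 3 each), a log2 change of 0.56 ± 0.06 (SE, limma adjusted p = 0.00118). Fosl2 (ENSMUSG00000029135), on chromosome 5 from 32135801 to 32157842, overlaps no other annotated gene.

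Fos, the gene of the classical early-response partner c-Fos, had 5.55, 2.66 and 4.12 FPKM in Light, against 9.24, 7.21 and 6.41 FPKM in Dark. Light 1, the highest Light library, stood less than 1 FPKM below Dark 3, the lowest Dark library. The means were 4.11 ± 1.45 FPKM in Light and 7.62 ± 1.46 FPKM in Dark (SD, n = 3 each), and the log2 change was -0.78 ± 0.22 (SE, limma adjusted p = 0.0336). The call was lost without Light 2 (adjusted p = 0.0842), Light 3 (0.0929), Dark 1 (0.07) or Dark 3 (0.0689), without both Dark 1 and Light 2 (0.0921) and without a filter on low values (0.0798). The change was -0.43 without both Dark 1 and Light 2. Fos has the lowest GC content of the members, 51.9%, and its change was -0.97 ± 0.23 (SE, limma adjusted p = 0.0145) after the length and GC correction. Fos (ENSMUSG00000021250) lies on chromosome 12 from 85473890 to 85477273.

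Fosb, whose product resembles c-Fos, was close to the lower limit of the table. It had 0.719, 0.518 and 0.541 FPKM in Light, against 0.511, 0.699 and 0.531 FPKM in Dark. The groups overlapped. When all genes above 0 were tested, its log2 change was 0.01 (limma adjusted p = 0.942).

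Fos made up 6.08% ± 2.20 of the summed Fos family in Light and 17.1% ± 3.35 in Dark (SD, n = 3 each). Fosl1 made up 46.9% ± 3.56 in Light and 35.0% ± 2.04 in Dark, while the share of Fosl2 was 46.1% ± 1.63 in Light and 46.6% ± 1.87 in Dark. In single libraries Fosl1 stood at 5.42, 13.3 and 7.29 times the level of Fos in Light, against 1.61, 2.14 and 2.61 times in Dark. The summed family was at 67.8 ± 1.59 FPKM in Light and 44.7 ± 0.291 FPKM in Dark (SD, n = 3 each). Jun family mRNA exceeded Fos family mRNA several-fold in both groups.

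**Figure D3:**
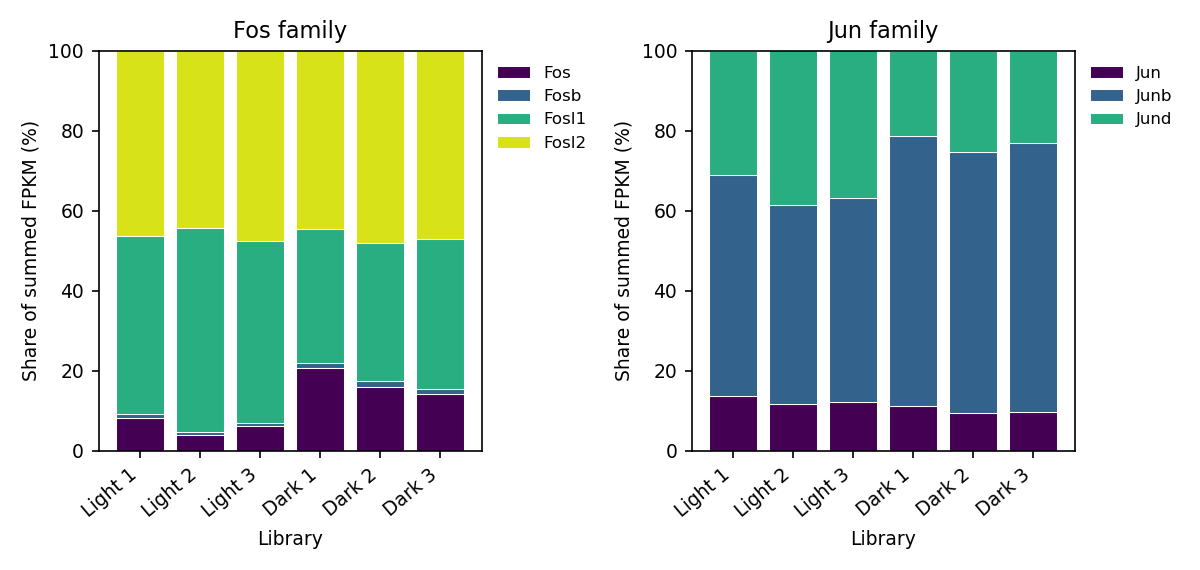
Share of each gene in the summed FPKM of the Fos family (left) and the Jun family (right), in percent, for each of the 3 Light and 3 Dark libraries. Fos makes up 3.83% to 8.21% of its family in Light and 14.3% to 20.8% in Dark, and Junb 49.6% to 55.3% of its family in Light and 65.4% to 67.6% in Dark.

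In order of level, the Light libraries gave Junb, Jund, Jun, Jdp2, Fosl1, Fosl2, Atf3, Fos and Fosb. The Dark libraries gave Junb, Jund, Jun, Jdp2, Fosl2, Fosl1, Fos, Atf3 and Fosb. Neighbours in this order had separate ranges in Dark, whereas in Light Jdp2 overlapped Fosl1 and Fosl1 overlapped Fosl2. Atf3 and Fos changed places: Atf3 stood at 1.63, 4.01 and 2.25 times the level of Fos in Light, against 0.291, 0.5 and 0.522 times in Dark. Junb lay above 97.0% of tested genes in Light and 97.7% in Dark, and Atf3 above 42.4% in Light and 14.7% in Dark.

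**Figure D4:**
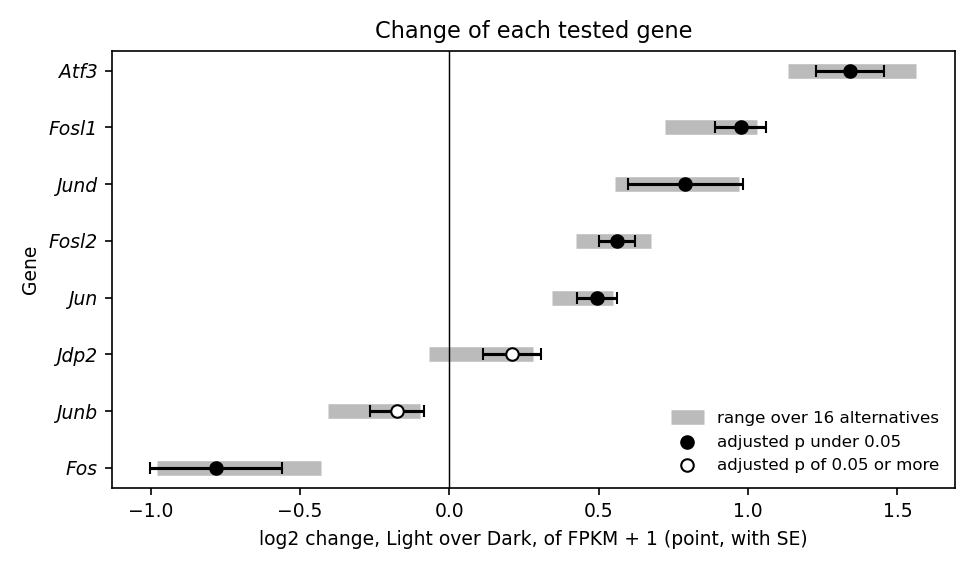
Log2 change, Light over Dark, of FPKM + 1 for the 8 tested genes (points, with the SE as bars) and the range of that change over 16 alternative settings (grey bars). Atf3, Fosl1, Jund, Fosl2 and Jun lie above 0 and Fos below it over the whole range, while the range of Jdp2 crosses 0.

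Genes with the most alike pattern were sought among 8126 genes of at least 5 FPKM, by Pearson correlation over the 6 libraries. The groups differ between these libraries for many genes, so high correlations are common. The nearest gene to Atf3 was Atf5 (r = 0.999), another ATF family gene. The nearest were Stbd1 to Fosl1 (r = 0.9994), Bid, which encodes a pro-apoptotic BCL2 family protein, to Fosl2 (0.9987), Rdh13 to Jun (0.9964) and Them6 to Jund (0.9993). For Fos it was Baz2a (0.9961), for Junb Aqp5 (0.9866) and for Jdp2 Pygo2 (0.9975). Among the members, Atf3 correlated at 0.991 with Fosl1 and 0.992 with Fosl2, and Fos at -0.953 with Jdp2.

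Other leucine zipper genes that can pair with these proteins or bind related sites moved in both directions. Of 26 tested, 10 rose, 4 fell and 12 were not called, so that 53.8% were called, against 35.6% of all tested genes. Their median log2 change was 0.12. Atf4, the main factor of the amino acid stress response and an activator of Atf3, had 302, 314 and 300 FPKM in Light, against 152, 158 and 155 FPKM in Dark (log2 change 0.97, limma adjusted p = 0.000169). Ddit3, the gene of CHOP, had 49.2, 56.6 and 50.1 FPKM in Light, against 25.0, 26.0 and 26.3 FPKM in Dark (0.98, limma adjusted p = 0.000327). Atf5 rose by 1.03 and Maf fell by 0.90 (limma adjusted p = 0.000649 and 0.000769). Cebpb, at 8.50 to 13.6 FPKM in Light and 6.42 to 10.5 FPKM in Dark, did not pass the test (log2 change 0.44, limma adjusted p = 0.128). It passed without Light 1 (limma adjusted p = 0.0489) or Dark 2 (0.0332). The change was 0.26 after the length and GC correction (limma adjusted p = 0.065) and 0.17 without both Dark 1 and Light 2 (0.576). The list's count of 14 calls was 9 without Light 2, Light 3 or Dark 3. Calls over all genes also depended on the libraries in the fit: 35.6% of tested genes were called with all 6, 11.9% without Light 2, 11.1% without Light 3, 23.8% without Dark 1, 53.1% without Dark 2 and 11.5% without Dark 3. Counts of every list with a library left out stand against these shares.

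Among kinase genes upstream of AP-1, of 15 MAP kinase and MAP2 kinase genes 3 rose and 2 fell (median log2 change -0.08), and of 14 MAP3 kinase and RAF genes 0 rose and 6 fell (median -0.20). The MAP kinase list thus had 33.3% of its genes called, close to the 35.6% of all tested genes, and the MAP3 kinase list 42.9%, all lower, where 16.4% of all tested genes were lower. At an unadjusted p under 0.05 in limma, 3 MAP3 kinase genes were higher and 7 lower. Mapk12, a p38 kinase gene, rose by 0.64 (limma adjusted p = 0.000853) and Map2k6, a p38 activator gene, fell by 0.72 (0.00747). Map2k3, which also activates p38, rose by 0.40 (limma adjusted p = 0.0101), a call lost without Light 3 (0.0516) or Dark 3 (0.0519). Map2k4, an activator of JNK, fell by 0.35 (limma adjusted p = 0.0263), a call lost without any of Light 2, Light 3, Dark 1 or Dark 3 (0.0549 to 0.0977). After the length and GC correction these changes kept their calls. They were smaller for Mapk12 (0.39), Map2k3 (0.19) and Map2k4 (-0.23), while Map2k6 stood at -0.79 (limma adjusted p = 0.00194). The genes of JNK1 and JNK2, which phosphorylate Jun, did not pass. Mapk8 (JNK1) had 3.62 to 4.50 FPKM in Light and 4.14 to 9.52 FPKM in Dark (log2 change -0.53, limma adjusted p = 0.117). Without Dark 2 it passed (limma adjusted p = 0.0117), but after the length and GC correction its change was -0.065 (0.686). Mapk9 (JNK2) had 10.5 to 13.5 FPKM in Light and 11.1 to 16.3 FPKM in Dark (limma adjusted p = 0.415). Mapk14 (p38α) had 25.9 to 27.4 FPKM in Light and 29.1 to 32.2 FPKM in Dark (limma adjusted p = 0.0546), and passed under 5 alternatives. Among the MAP3 kinase genes Map3k14 fell by 0.41, Braf by 0.91, Map3k20 by 0.40 and Map3k7 by 0.43 (limma adjusted p = 0.0143 to 0.0384). The length and GC correction took away most of the change of Map3k20 (-0.07, limma adjusted p = 0.345) and Map3k7 (-0.14, 0.104), which were then not called, and left Braf at -0.40 (0.0285). Map3k14 was at -0.26 and not called with quantile normalization (limma adjusted p = 0.121). Each of these 4 calls was lost without Light 3 or Dark 3. In each of these fits limma called 0 MAP3 kinase genes and 5 were lower at an unadjusted p under 0.05. That list had 1 call without Light 2 or without a filter (where 13.5% of all genes were called), 2 without Dark 1, 10 without Dark 2, and 2 lower with 1 higher after the length and GC correction. The MAP kinase list had 2 calls without Light 3 or Dark 3, 3 without Light 2 or Dark 1, and 8 without Dark 2.

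SRF and the ternary complex factors act on the Fos promoter. Of 6 genes of SRF, its coactivators and the ternary complex factors, 0 rose and 2 fell, Elk3 by 0.37 and Mkl2 by 0.39 (limma adjusted p = 0.0104 and 0.0214). At an unadjusted p under 0.05 in limma, 1 was higher and 3 were lower. The share called, 33.3%, was close to the 35.6% of all tested genes. Mkl2 was not called after the length and GC correction (-0.12, limma adjusted p = 0.2) or with quantile normalization (-0.23, 0.0853). Srf itself had 21.3 to 25.7 FPKM in Light and 23.1 to 28.4 FPKM in Dark (limma adjusted p = 0.465), and was called, lower in Light, only after the length and GC correction (0.0169). The list had 1 call without Light 2 or Light 3, 4 without Dark 2 or with libraries rescaled to the same FPKM total, and 0 without Dark 3, where 2 were lower at an unadjusted p under 0.05. Mkl2 was the call lost without Light 2 (adjusted p = 0.0775) or Light 3 (0.0794), and it also lost its call without Dark 3 (0.0835), as Elk3 did (0.0524).

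Genes of AP-1 cofactors and turnover gave 3 increases and 6 decreases among 18 tested, 9 calls in all where 35.6% of all tested genes were called (median log2 change -0.07). The decreases were led by Smad3, a TGF-beta signal factor that pairs with AP-1, by 0.83, and by the acetyltransferase genes Ep300 and Crebbp, by 0.60 and 0.73 (limma adjusted p = 0.000649 to 0.00695). Nfatc3 fell by 0.66 (limma adjusted p = 0.0148), a call lost without Light 3 (0.0576) or Dark 3 (0.0597). After the length and GC correction the changes were smaller but still called, -0.32 for Ep300, -0.43 for Crebbp and -0.39 for Nfatc3. The list's 9 calls were 4 without Light 2 and 3 without Light 3 or Dark 3.

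Textbook AP-1 target genes split almost evenly: of 25 tested, 7 rose, 6 fell and 12 were not called. The share called was 52.0%, against 35.6% of all tested genes, and the median log2 change was 0.19. Plaur, the gene of the urokinase receptor, had 25.2, 28.5 and 27.5 FPKM in Light, against 9.85, 11.9 and 10.9 FPKM in Dark (log2 change 1.25, limma adjusted p = 0.000258). Hmox1, Mt2 and Vegfa, the haem oxygenase, metallothionein and vascular growth factor genes, rose by 2.27, 1.22 and 0.93 (limma adjusted p = 4.13e-05 to 0.000649). All of these have other known activators. The decreases included Plau, the gene of urokinase, the ligand of the Plaur product, which had 5.92, 4.98 and 4.96 FPKM in Light, against 8.77, 8.91 and 7.86 FPKM in Dark (log2 change -0.60, limma adjusted p = 0.00545). Mmp9, a gelatinase gene, fell by 0.84 and Bcl2l11, the gene of the pro-apoptotic protein BIM, by 0.74 (limma adjusted p = 0.00266 and 0.00335). Mmp9 had 0.858, 0.793 and 0.823 FPKM in Light, against 2.21, 2.62 and 2.01 FPKM in Dark. It thus met the limit for testing only through its Dark values. Cd44, Cxcl1 and Ccna2 were the other 3 decreases, and their calls were lost under 1, 7 and 5 of the 16 alternatives, Cd44 only after the length and GC correction (limma adjusted p = 0.648) and Cxcl1 and Ccna2 without Light 2, Light 3 or Dark 3 among others. The collagenase gene Mmp13 and Mmp3, among the best known AP-1 targets, were below the limit for testing.

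Of the other immediate early genes, which like Fos respond to stimuli without new protein synthesis, 25 were tested and 8 rose, 5 fell and 12 were not called (median log2 change 0.11), a share called of 52.0% against 35.6% of all tested genes. Egr1, which shares growth factor control with Fos, had 9.46, 7.26 and 10.8 FPKM in Light, against 18.3, 15.9 and 15.4 FPKM in Dark (log2 change -0.80, limma adjusted p = 0.00716). Ier3 rose by 1.65 and Myc by 0.65, while Ctgf and Zfp36l1 fell by 1.57 and 1.19 (limma adjusted p = 4.13e-05 to 0.000975). Dusp1, the gene of a phosphatase of JNK and p38, had 15.0 to 18.1 FPKM in Light and 12.6 to 15.6 FPKM in Dark (log2 change 0.25, limma adjusted p = 0.095). It passed without Light 1 (limma adjusted p = 0.049) or Dark 2 (0.0415), but its change after the length and GC correction was 0.05 (0.612). The list's 13 calls were 7 without Light 2 or Dark 3 and 8 without Light 3.

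**Figure D5:**
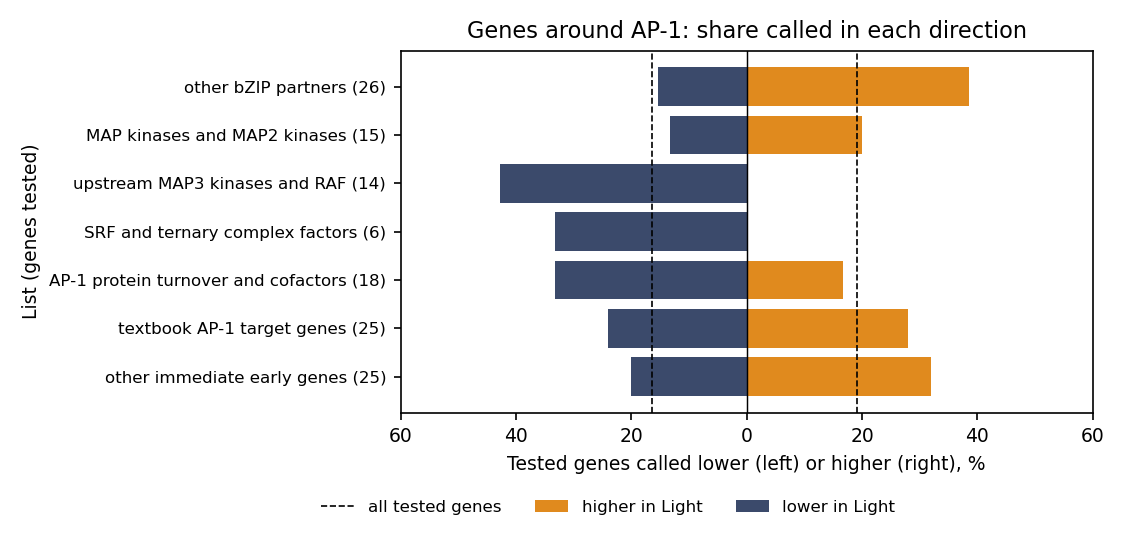
Percentage of tested genes called higher (orange, right) or lower (blue, left) in Light for each list around AP-1, with the number of genes tested in brackets and dashed lines at the shares for all tested genes, 19.2% and 16.4%. The MAP3 kinase and SRF lists hold 0 increases.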

How the data were processed

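Per the file headers, the authors deposited FPKM values of each gene for 3 Light and 3 Dark libraries of 661W mRNA, in a table of the whole series and in 6 single files with identical values. HISAT2 and mm10 are named in the submitters' processing notes. How FPKM was computed (program, annotation, strand setting) is not given in the sources used here. Low values did not step in whole reads: only 1.14% to 1.95% of low genes shared the commonest ratio of a library pair. So no count test was run. Genes that averaged 1 FPKM or more were tested on log2(FPKM + 1) with limma 3.58.1 in R 4.3.3 (2-sided, robust, with a mean trend). The model held the group alone, with a threshold of 0.05 after adjustment. The procedure was tested on simulated data with independent noise for each gene and library. Shifts shared by many genes of a library were therefore not covered. Positions, exon overlaps, transcript length and GC content came from GENCODE M21, which held 22022 of 22036 Ensembl identifiers, and promoters from RefSeq. The members and lists were chosen with earlier results of these data known. All members are named. Of each list up to 4 called genes with the smallest p-values are named, with 10 fixed genes, and the most alike gene of each tested member. Mmp3, Mmp13, Mmp9, Plau, Bcl2l11, Cd44, Cxcl1, Ccna2 and the genes overlapping members were named after their values were seen. Alternatives were no filter, a mean of at least 5 FPKM, a pseudocount of 0.1, 3 other scalings, removal of a loess trend (span 0.5) with length and GC content, limma without trend, a replicate block, each library left out, and Dark 1 with Light 2 left out.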

Additional observations from a re-analysis of the deposited data

How the results depend on the processing

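Atf3, Fosl1, Fosl2 and Jun kept their direction and their call under all 16 alternatives, with log2 changes of 1.13 to 1.56, 0.72 to 1.03, 0.42 to 0.68 and 0.34 to 0.55. Fos lost its call under 6 and Jund under 5, with the direction kept. Removing the length and GC trend reversed Jdp2 (-0.07), Mapk9 (0.021) and Baz2a (0.012), and leaving out Dark 1 and Light 2 reversed Mapk9 (0.063). Called genes over the whole table numbered 3938, and 2606 with no filter, 6690 with the replicate block, 1427 without Dark 1 and Light 2, and 1228 to 5874 with a library left out. Calls over the 7 pathway lists numbered 62, and 96 with the block, 35 without Dark 1 and Light 2, and 31 to 79 with a library left out. Called members numbered 4 to 8 over the alternatives. Libraries rescaled to the same FPKM total moved the median change of all genes to -0.14 and the split to 1212 higher and 2910 lower, against 2128 higher and 1810 lower without rescaling, and no member changed direction. Deviations of same-numbered libraries correlated at 0.69, 0.64 and -0.09. Those of Light 1 with Dark 2 and of Light 2 with Dark 1 correlated at -0.68 and -0.67. Because the deviations of each gene cancel within a group, these negative values largely follow from the positive ones. Light 3 correlated at -0.04, 0.08 and -0.09 with Dark 1, Dark 2 and Dark 3, so it cannot decide on pairing. The labels do not call the numbers pairs and they were not taken as such, but a shared effect within numbers 1 and 2 was not excluded. The block gave calls to Junb (adjusted p = 0.024) and Jdp2 (0.00639). The cause of these shifts was not tested. No read depth is known, and only the agreement of 3 libraries in each group sets the precision.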
